A study of Mus musculus with 18 samples.

Results

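The vesicular glutamate transporters are encoded by 3 mouse genes, Slc17a6 (VGLUT2), Slc17a7 (VGLUT1) and Slc17a8 (VGLUT3). They were chosen by name and are 3 of the 54446 genes counted in tissue labelled as whole spinal cord, and all of them passed the filter on low counts that left 20635 genes to test. The 18 untreated mice were 10 months old, with 3 of them per genotype and 6 genotypes, and each library is 1 animal. All knock-in mice were heterozygous for the human sequences they carried. The Q33 double knock-in (Q33;TDP-43) carried human ATXN2 with a tract of 33 glutamines (hATXN2-Q33) and human TDP-43 (hTDP-43), and the Q22 double knock-in (Q22;TDP-43) carried hATXN2-Q22, with 22 glutamines, and hTDP-43. The single knock-ins carried hATXN2-Q33 (Q33), hATXN2-Q22 (Q22) or hTDP-43 (TDP-43) alone, and the controls (NTg) were C57BL/6 mice without a transgene. ATXN2 and TDP-43 are RNA-binding proteins linked to amyotrophic lateral sclerosis, and the design asks what each human form does alone and together.

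Vesicular glutamate transporters sit in the membrane of synaptic vesicles and load them with glutamate, driven by the voltage that the vacuolar proton pump builds across that membrane. A neuron that expresses one of them can release glutamate as its transmitter. In the spinal cord Slc17a6 is the main form of excitatory interneurons. VGLUT1 protein in the cord lies mostly in terminals of sensory and descending fibres whose cell bodies, and therefore whose Slc17a7 mRNA, are elsewhere, although neurons of Clarke's column in the thoracic and upper lumbar cord express the gene. Slc17a8 is expressed by a small population of dorsal horn neurons. In bulk tissue a lower level can mean fewer cells of a type or less RNA per cell, and these cannot be told apart.

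The genes lie at separate places in the genome (build mm10). Slc17a6 (ENSMUSG00000030500.6) is on chromosome 7 at 51622006 to 51671119 on the plus strand, Slc17a7 (ENSMUSG00000070570.5) on chromosome 7 at 45163949 to 45176142 on the plus strand, and Slc17a8 (ENSMUSG00000019935.16) on chromosome 10 at 89574020 to 89621253 on the minus strand. Slc17a6 overlaps the gene model Gm45072 on the same strand, which had 109 counts in all libraries together. Slc17a7 overlaps the microRNA gene Mir7055, which had 0 counts, and Slc17a8 overlaps no other gene.

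The 3 genes are paralogs, so the stretch of coding sequence in which they are most alike is shown to let their similarity be set against the length of a read. Each line holds 60 aligned coding bases, 5′ to 3′ on the coding strand, from the GENCODE vM21 transcripts of GRCm38, and capitals mark the 47 positions with the same base in all 3 genes.
Slc17a6: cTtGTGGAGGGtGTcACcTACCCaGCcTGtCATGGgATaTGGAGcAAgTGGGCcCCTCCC
Slc17a7: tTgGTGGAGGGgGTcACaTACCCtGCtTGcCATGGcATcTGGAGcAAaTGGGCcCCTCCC
Slc17a8: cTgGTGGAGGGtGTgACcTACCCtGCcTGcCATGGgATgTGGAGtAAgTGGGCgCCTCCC
These bases are coding positions 565 to 624 of Slc17a6, 541 to 600 of Slc17a7 and 619 to 678 of Slc17a8, and in each gene they cross a junction between exons. They lie within chr7:51645111-51646237 on the plus strand for Slc17a6, chr7:45170316-45170451 on the plus strand for Slc17a7 and chr10:89597482-89598645 on the minus strand for Slc17a8. All 3 coding sequences have 12 coding exons and encode proteins of similar length, with 582, 560 and 601 codons in that order. Aligned coding sequences were identical at 71.9% of positions between Slc17a6 and Slc17a7, 71.1% between Slc17a6 and Slc17a8 and 70.0% between Slc17a7 and Slc17a8. The longest run shared letter for letter was 25 bases, between Slc17a6 and Slc17a8, against reads of 100 bases. No exact run was as long as a read.

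Count totals ran from 16061359 to 30978678 per library, and levels are given as CPM, with library sizes adjusted by TMM factors. Some library properties moved with the genotype or differed within it. The share of mitochondrial ribosomal RNA was 26.1% ± 2.70 in the Q33 double knock-in and 17.8% ± 3.05 in NTg (SD, n = 3 each). A caudal Hox score, the average log2 CPM of 6 genes of groups 10 and 11 that mark lumbar and sacral segments, was 1.76 ± 1.57 in the Q33 double knock-in and -1.42 ± 0.60 in NTg, and it spread more among animals of Q33 (0.73 ± 2.79) and of the Q22 double knock-in (-0.12 ± 3.15). The labels do not say whether the same length of cord was taken from every animal, so the libraries may hold different segments. Reads of Y-linked genes were above 10 CPM in 1 of 3 libraries of each double knock-in, in 2 of 3 of Q33, 3 of 3 of Q22 and 2 of 3 of TDP-43, against 0 of 3 in NTg. The part of these properties in the results was not tested beyond the fits named beside them.

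Slc17a6 carried nearly all vesicular glutamate transporter mRNA of the cord. On a scale divided by exon length (CPM per kilobase of exon, RPKM), it averaged 44.3 ± 5.07 over the 18 libraries, against 0.25 ± 0.24 for Slc17a7 and 0.384 ± 0.121 for Slc17a8 (SD). Its share of the summed RPKM of the 3 genes was between 96.8% and 99.3%, with a median of 98.7%. In NTg its mean of 44.0 RPKM stood above 97.7% of the 20635 genes tested, whereas Slc17a7, at 0.479 RPKM, stood above 18.7% and Slc17a8, at 0.409 RPKM, above 16.1%. For comparison on the same scale, Slc32a1, the transporter that loads GABA and glycine into vesicles, averaged 24.9 RPKM, and Slc18a3, the one for acetylcholine, 5.62 RPKM.

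The 3 genes also differed in how steady they were. Over all libraries the coefficient of variation was 11.4% for Slc17a6, 31.6% for Slc17a8 and 95.9% for Slc17a7. Slc17a6 had between 3886 and 8491 counts per library, so its variation is well above counting error. Slc17a8 had 15 to 83 counts and Slc17a7 0 to 102, so part of their variation is counting error. Slc17a7 was at or under 3 counts in 2 libraries.

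**Figure D1:**
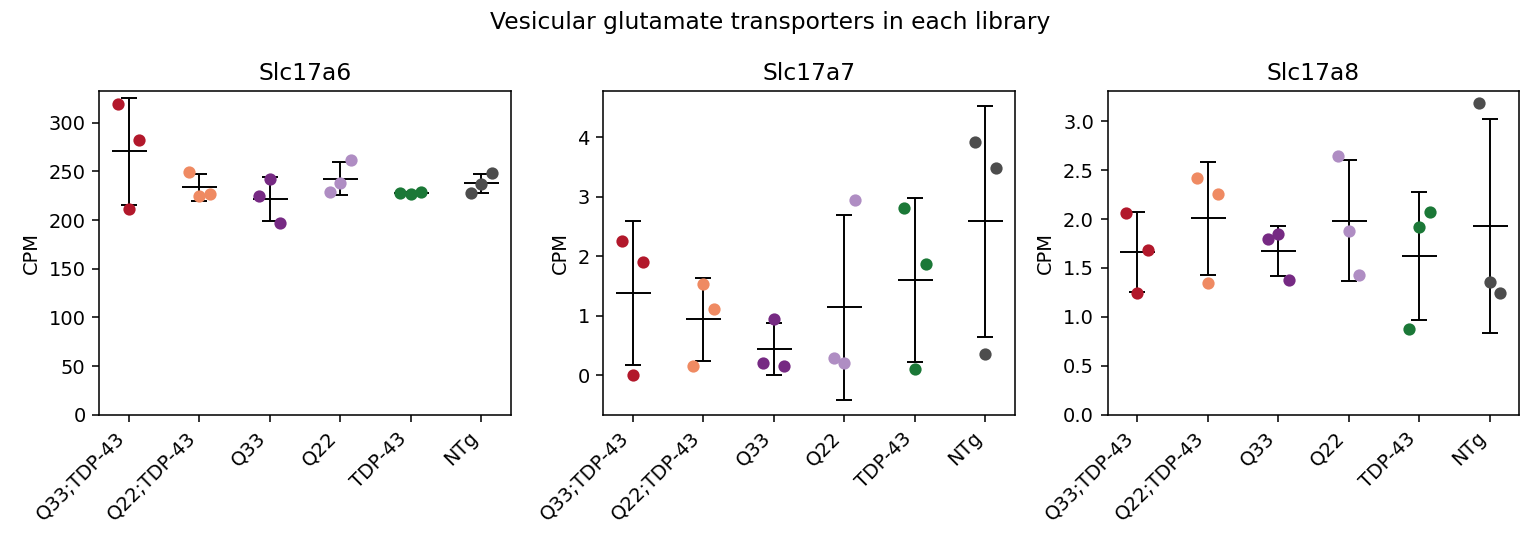
Level of each vesicular glutamate transporter (CPM, linear axis; the Slc17a7 axis runs below 0 to hold an error bar) in every library, as points, with the mean and SD of each genotype as a black bar and whiskers (n = 3). Slc17a6 lies between 197 and 319 CPM in every genotype, whereas Slc17a7 spans 0 to 3.91 CPM and is low in at least 1 animal of each genotype.

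Slc17a6 had 319, 211 and 283 CPM in the 3 animals of the Q33 double knock-in. It had 249, 225 and 226 CPM in the Q22 double knock-in, and 228, 237 and 248 CPM in NTg. Thus 2 animals of the Q33 double knock-in had the highest values of the series, while the other animal lay below every NTg animal. Among the single knock-ins, Slc17a6 had 225, 242 and 197 CPM in Q33, 228, 238 and 262 CPM in Q22, and 228, 226 and 229 CPM in TDP-43. By means the order was Q33 double knock-in (271 ± 54.9 CPM), Q22 (243 ± 17.1), NTg (238 ± 10.0), Q22 double knock-in (234 ± 13.8), TDP-43 (228 ± 1.27) and Q33 (221 ± 22.7), each as mean ± SD with n = 3. In none of the 15 pairs of genotypes were the libraries of one all above those of the other, so this order is a description. The same share over all genes was not counted.

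In the Q33 double knock-in against NTg, the log2 fold change of Slc17a6 was 0.19 (SE 0.11, 95% interval -0.05 to 0.43, adjusted p = 0.30; edgeR's quasi-likelihood test with Benjamini-Hochberg adjustment). The interval allows a fold between 0.964 and 1.35. In that comparison 12.1% of all genes tested passed the adjusted threshold of 0.05, so the absence of a call for Slc17a6 came in a comparison with many calls elsewhere. The largest differences of Slc17a6 were between the Q33 double knock-in and each single knock-in that it combines. Its log2 fold change was 0.25 against TDP-43 (SE 0.11, unadjusted p = 0.043, edgeR adjusted p = 0.16), where 12.6% of genes passed. It was 0.29 against Q33 (SE 0.11, unadjusted p = 0.021, edgeR adjusted p = 0.19), where 0.892% passed. The interaction of Q33 with TDP-43, which measures how far the double knock-in departs from the sum of its parts, was 0.35 (SE 0.16, unadjusted p = 0.043, edgeR adjusted p = 0.37), with 0% of genes passing.

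The Slc17a6 result depended on which animal of the Q33 double knock-in was left out. With replicate 2 of that genotype left out, the animal at 211 CPM, the log2 fold change was 0.34 against NTg (SE 0.10, edgeR adjusted p = 0.040) and 0.37 against the Q22 double knock-in (adjusted p = 0.025), and it also passed against TDP-43 (0.40, adjusted p = 0.017) and Q33 (0.44, adjusted p = 0.043). Replicate 2 was the lowest of the 3 animals, so leaving it out was bound to raise the estimate. Without replicate 1, at 319 CPM, the log2 fold change was 0.06 against NTg (edgeR adjusted p = 0.83). Without replicate 3, at 283 CPM, it was 0.16 (edgeR adjusted p = 0.45). Replicate 2 had the highest caudal Hox score of all libraries, 3.54, against 1.21 and 0.55 in the other animals of its genotype. The next highest scores were 3.51 in replicate 1 of the Q22 double knock-in and 2.71 in replicate 2 of Q33. Slc17a6 in these libraries, at 249 and 242 CPM, was the highest of each genotype. With the caudal Hox score as a term in the fit, Slc17a6 stayed at 0.19 in the Q33 double knock-in against NTg (SE 0.14, edgeR adjusted p = 0.47). Scaling by library totals in place of TMM gave -0.05 for the same comparison, but that scaling moved the median of all genes from -0.01 to -0.25, so relative to the median Slc17a6 was higher under both.

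The Q33 double knock-in against the Q22 double knock-in gave 0.21 (95% interval -0.03 to 0.46, edgeR adjusted p = 0.23). In the remaining comparisons Slc17a6 lay between -0.13 and 0.04. Its log2 fold change in the Q22 double knock-in was -0.03 against NTg (95% interval -0.27 to 0.22), 0.04 against TDP-43 (-0.20 to 0.28) and -0.06 against Q22 (-0.30 to 0.19). The single knock-ins against NTg gave -0.10 for Q33 (-0.34 to 0.14), 0.03 for Q22 (-0.21 to 0.27) and -0.06 for TDP-43 (-0.30 to 0.18). Q33 against Q22 gave -0.13 (-0.37 to 0.11), and the interaction of Q22 with TDP-43 0.01 (-0.33 to 0.35). In the 11 comparisons of 2 genotypes the intervals together reached from 0.771-fold to 1.45-fold, so a change of Slc17a6 by a factor of 1.5 lay outside all of them, though not outside the interval of the interaction of Q33 with TDP-43 (1.01-fold to 1.62-fold). These intervals use a spread estimated over all genotypes. The SD of Slc17a6 was 54.9 CPM in the Q33 double knock-in and 1.27 CPM in TDP-43. In alternative fits the log2 fold change in the Q33 double knock-in against Q33 reached 0.51, against 0.29 in the fit of all 18 libraries. The limit of 1.5-fold is therefore given for the fit of all 18 libraries only.

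Slc17a7 had 2.25, 0 and 1.90 CPM in the Q33 double knock-in, 0.16, 1.54 and 1.11 CPM in the Q22 double knock-in, and 3.91, 0.37 and 3.47 CPM in NTg. The single knock-ins gave 0.21, 0.94 and 0.15 CPM in Q33, 0.28, 0.20 and 2.94 CPM in Q22, and 2.81, 0.10 and 1.87 CPM in TDP-43. Every genotype thus held at least 1 animal under 0.4 CPM, and all genotypes but Q33 at least 1 above 1 CPM. The library listed at 0 had 28514223 counts, and 3 counts there would be 0.121 CPM. Mean levels ran in the order NTg (2.58 ± 1.93 CPM), TDP-43 (1.59 ± 1.38), Q33 double knock-in (1.39 ± 1.21), Q22 (1.14 ± 1.56), Q22 double knock-in (0.937 ± 0.704) and Q33 (0.437 ± 0.440), as mean ± SD with n = 3. No pair of neighbours, and none of the 15 pairs of genotypes, was without overlap, a share that was not counted over all genes.

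All 5 knock-in genotypes had negative Slc17a7 estimates against NTg, and all 5 comparisons share the same NTg animals. The log2 fold change was -0.91 in the Q33 double knock-in (SE 1.07, edgeR adjusted p = 0.63), -1.47 in the Q22 double knock-in (SE 1.11), -2.60 in Q33 (SE 1.22), -1.16 in Q22 (SE 1.09) and -0.77 in TDP-43 (SE 1.08). Single libraries moved these values: the estimate ranged from -1.48 to -0.33 in the Q33 double knock-in, -2.06 to -0.98 in the Q22 double knock-in, -3.80 to -2.17 in Q33, -3.41 to -0.68 in Q22 and -1.45 to -0.17 in TDP-43 with 1 library left out, and stayed negative. Q33 against NTg had an unadjusted p of 0.047 and an edgeR adjusted p of 0.68. Its 95% interval of -5.17 to -0.04 shows how little 3 animals per genotype fix this gene. Without the filter on low counts, Q33 against NTg passed at nearly the same estimate (-2.59, SE 0.40, edgeR adjusted p = 4.9e-08), in a fit that called 408 genes where the filtered fit called 0. The Q33 double knock-in against Q33 was 1.69 (SE 1.25, edgeR adjusted p = 0.52), and it also passed without the filter (1.70, SE 0.41, adjusted p = 0.0026).

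**Figure D2:**
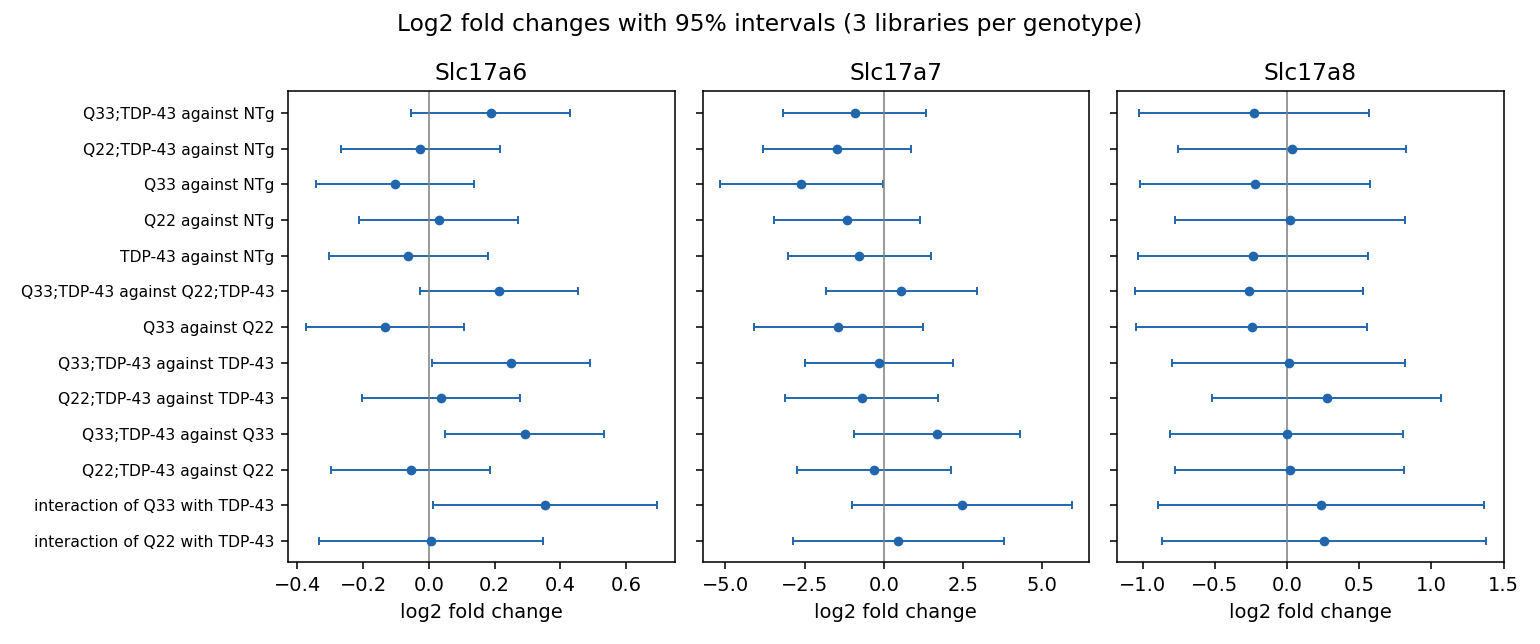
Log2 fold change of each vesicular glutamate transporter (x axis, a different range in each panel) in the 11 comparisons of 2 genotypes and the 2 interactions (y axis, first-named genotype over the second), with 95% intervals from the edgeR fit of all 18 libraries. Slc17a6 is held within -0.37 and 0.53 in the 11 comparisons, and the intervals of Slc17a7 reach from -5.17 to 4.31.

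The spread of Slc17a7 within genotypes went with the Hox code of the library. In the 5 libraries with Hoxc10, a gene of lumbar and sacral segments, under 1 CPM, Slc17a7 lay between 0.101 and 0.365 CPM. These were 1 animal of Q33, 2 of Q22, 1 of TDP-43 and 1 of NTg. In the 3 libraries with Hoxd11, a gene of more caudal segments, above 1 CPM (1 animal each of the Q33 double knock-in, the Q22 double knock-in and Q33), it lay between 0 and 0.945 CPM. The other 10 libraries had a median of 2.08 CPM, and all of them but 1 animal of Q33 (0.15 CPM) were above 1 CPM. These limits were set after the values were seen and the pattern is given without a test. Whether segments sampled unequally set these values was not tested. Slc17a6 did not divide the libraries in this way, with medians of 228, 242 and 229 CPM in the same 3 sets, and neither did Slc17a8, with 1.88, 1.84 and 1.55 CPM.

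**Figure D3:**
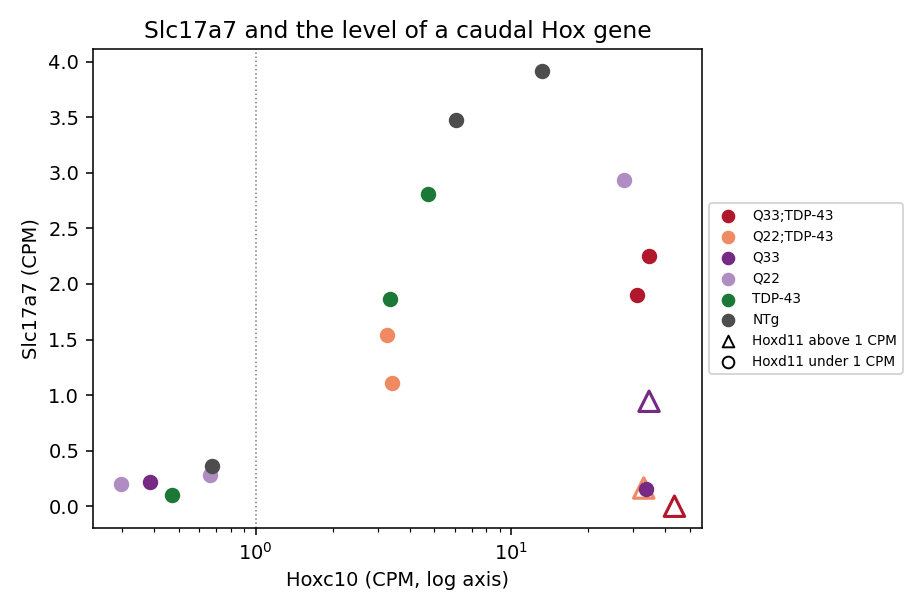
Slc17a7 (CPM, linear axis) against Hoxc10 (CPM, log axis) in the 18 libraries, coloured by genotype, with open triangles for libraries with Hoxd11 above 1 CPM and the dotted line at 1 CPM of Hoxc10. The 5 libraries left of the line are at or under 0.365 CPM of Slc17a7, the 3 triangles are at or under 0.945 CPM, and the highest values, in 2 NTg animals, lie between.

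Markers of neurons from outside the cord, some of which express Slc17a7, were read in the same libraries. The sensory neuron genes Scn10a and Mrgprd stayed at or under 0.0989 and 0.089 CPM in all libraries. The summed level of all 8 dorsal root ganglion genes ran from 2.05 to 3.04 CPM in the Q33 double knock-in and from 2.07 to 2.32 CPM in NTg, with the purinergic receptor gene P2rx3 contributing more than any other. The forebrain genes Emx1 and Fezf2 did not exceed 0.123 CPM, and the cerebellar granule cell genes Gabra6 and Fat2 did not exceed 0.378 and 0.261 CPM. Neurod2 and Neurod6, which are forebrain genes but not exclusive to it, were detected at 1.58 to 5.30 CPM in all libraries. Among the 8 dorsal root ganglion genes, 3 were tested and 0 passed in the Q33 double knock-in against NTg, and likewise 3 of the 7 forebrain genes, 3 of the 5 cerebellar and precerebellar genes and 1 of the 3 serotonergic genes were tested and 0 passed. The edgeR fit called 0 of these 10 genes, and DESeq2 called 0 as well. Over all genes tested, edgeR called 12.1% in this comparison, and 10 genes are too few to tell 0 from that share. The smallest edgeR adjusted p among them was 0.18, of Cbln3 (0.77, SE 0.37), followed by P2rx3 (0.54, SE 0.28), Tph2 (1.27, SE 0.69) and Avil (-0.76, SE 0.46).

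Slc17a8 had 2.06, 1.25 and 1.68 CPM in the Q33 double knock-in, 2.42, 1.35 and 2.26 CPM in the Q22 double knock-in, and 3.19, 1.36 and 1.25 CPM in NTg. In the single knock-ins it had 1.80, 1.84 and 1.38 CPM in Q33, 2.65, 1.88 and 1.43 CPM in Q22, and 0.88, 1.92 and 2.07 CPM in TDP-43. The highest value was in NTg and the lowest in TDP-43, and the genotypes overlapped throughout. The order of the means was Q22 double knock-in (2.01 ± 0.58 CPM), Q22 (1.98 ± 0.62), NTg (1.93 ± 1.09), Q33 (1.67 ± 0.26), Q33 double knock-in (1.66 ± 0.41) and TDP-43 (1.62 ± 0.65), as mean ± SD with n = 3, with no neighbours apart.

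Against NTg, the log2 fold change of Slc17a8 was -0.23 in the Q33 double knock-in (SE 0.38, 95% interval -1.02 to 0.57, edgeR adjusted p = 0.75). It was 0.04 in the Q22 double knock-in, -0.23 in Q33, 0.02 in Q22 and -0.24 in TDP-43. Over the 11 comparisons of 2 genotypes the estimates ran from -0.26 to 0.27, and the intervals reached from 0.481-fold to 2.10-fold. Each of these intervals held a rise or a fall of Slc17a8 by a factor of 1.5, though not always both. The upper bound was 1.48-fold in the Q33 double knock-in against NTg. The lower bound was 0.697-fold in the Q22 double knock-in against TDP-43. No comparison excluded such a change in both directions at this depth and number of animals.

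Across the 42 tests of the 3 genes (11 comparisons of 2 genotypes, 2 interactions and the test of any difference among the 6 genotypes), edgeR called 0 and 4 had an unadjusted p under 0.05. DESeq2 gave an adjusted p to 39 of them and called 0. An unadjusted edgeR p under 0.05 was found for 5908 of the 20635 genes in the Q33 double knock-in against TDP-43 and 3650 against Q33. These, with Q33 against NTg (1502 genes) and the interaction of Q33 with TDP-43 (2674), were the comparisons of the 4 tests. The test of any difference gave F = 1.59 for Slc17a6, 1.03 for Slc17a7 and 0.26 for Slc17a8, with edgeR adjusted p of 0.52, 0.71 and 0.97, and 4.16% of all genes passed it. The background of calls was 12.8% between the Q33 and Q22 double knock-ins. It was 0.00969%, or 2 genes, between the Q22 double knock-in and NTg. The share was 0% in each single knock-in against NTg, in Q33 against Q22, in the Q22 double knock-in against TDP-43 and against Q22, and in both interactions. In these 8 tests with 0 genes called by edgeR, between 442 and 2674 of the 20635 genes had an unadjusted p under 0.05, and DESeq2 called between 0 and 118.

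The balance between the 3 transporters within a library was compared as log2 ratios of counts per exon length, with 0.5 added to each count. The log2 ratio of Slc17a6 to Slc17a8 averaged 7.14 ± 0.07 in the Q33 double knock-in and 6.87 ± 0.79 in NTg (SD, n = 3). The ratio of Slc17a6 to Slc17a7 averaged 9.34 ± 1.20 in Q33 and 7.08 ± 1.87 in NTg, a difference of 2.26 (two-sided exact permutation test, p = 0.20, adjusted p = 0.83 over 15 tests). With 3 animals against 3 the smallest p possible is 0.1, so the exact test cannot pass 0.05. The adjusted p was at least 0.83 in all 15 tests of 3 ratios in 5 knock-in genotypes.

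Genes whose levels followed a transporter most closely were found by Pearson's r of log2 CPM over the 18 libraries, among 16277 tested genes that averaged 1 CPM or more. All genes of a library share its depth, scaling and genotype, and r is a description. For Slc17a6 the nearest were Nrn1 (neuritin, a membrane-anchored protein of neurites; r = 0.93), Zmat4 (0.84), Rundc3b (0.84), Pigf, an enzyme of GPI anchor synthesis (0.84), and Hapln1, a link protein of perineuronal nets (0.83). In all, 12 genes had r above 0.8. After genotype means were subtracted, these 5 had r between 0.83 and 0.93. They were picked by r in the same libraries, so these values are no separate support. Nrn1 had 168, 95.03 and 144 CPM in the Q33 double knock-in, against 94.0, 103 and 98.7 CPM in NTg, high in the same 2 animals as Slc17a6. Without those 2 animals, which were farthest from the median of Slc17a6, r was 0.80 for Nrn1 and between 0.44 and 0.68 for the others.

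For Slc17a7 the nearest genes were F2r, a thrombin receptor (r = 0.83), Rspo3, a secreted enhancer of Wnt signalling (0.82), Frem3 (0.79), Cntnap5a, of the contactin-associated family (0.78), and Mme, the peptidase neprilysin (0.78). Leaving out the 2 libraries at or under 3 counts of Slc17a7, r was between 0.65 and 0.81, and within genotypes it was between 0.76 and 0.87. F2r had 13.3, 10.1 and 13.7 CPM in the Q33 double knock-in and 17.4, 14.1 and 23.9 CPM in NTg. For Slc17a8 the nearest were Hmgxb4 (r = 0.81), Rgl1 (0.77), Sptb, a spectrin (0.77), Pcdhac2, a clustered protocadherin (0.75), and Zfyve19 (0.72). With 15 to 83 counts behind Slc17a8 and a range of 30.2 to 36.3 CPM in Hmgxb4, the likeness is to small movements of that gene. Ranking by Spearman's rho kept 2 of the 5 genes for Slc17a6, 3 for Slc17a7 and 3 for Slc17a8. Scaling by library totals kept 3, 3 and 1.

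The rest of the glutamate pathway was read in the Q33 double knock-in against NTg, the comparison of a knock-in with NTg in which edgeR called more than 2 genes. There 5.68% of all genes were higher and 6.39% lower, and the median log2 fold change of all genes was -0.01. Of 5 plasma membrane glutamate transporters, 0 were higher and 2 lower, with a median log2 fold change of -0.58. Slc1a3, the astrocyte transporter GLAST, had 37.0 ± 8.29 CPM in the Q33 double knock-in and 71.8 ± 9.29 CPM in NTg (SD, n = 3; log2 fold change -0.96, SE 0.17, edgeR adjusted p = 0.0020). Slc7a11, the cystine and glutamate exchanger, was lower by a similar amount (-0.87, SE 0.17, edgeR adjusted p = 0.0040). Slc1a1, a neuronal transporter, was at 0.33 (SE 0.11, edgeR adjusted p = 0.055), and Slc1a2, the main astrocyte transporter, at -0.01 (SE 0.11, adjusted p = 0.96).

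Of 9 genes of glutamate and glutamine metabolism and transport, 3 were higher and 0 lower, with a median log2 fold change of 0.33. These were the liver-type glutaminase Gls2 (0.56, SE 0.13, edgeR adjusted p = 0.0098) and the aspartate aminotransferases Got1 (0.53, SE 0.12, adjusted p = 0.0095) and Got2 (0.39, SE 0.12, adjusted p = 0.037). With replicate 1 of the double knock-in left out 0 of the 9 passed, as with the Hox score as a term, while library totals gave 0 higher and 1 lower and DESeq2 5 higher and 1 lower.

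The vacuolar proton pump supplies the driving force for vesicular loading. Of its 17 listed genes, which include the chloride transporter Clcn3, 9 were higher and 0 lower, with a median log2 fold change of 0.39. Those with the smallest adjusted p were the cytosolic subunit genes Atp6v1c1 (0.51, SE 0.10, edgeR adjusted p = 0.0053), Atp6v1d (0.50, SE 0.11, adjusted p = 0.011) and Atp6v1h (0.41, SE 0.10, adjusted p = 0.012). The count fell to 1 with replicate 1 of the double knock-in left out, 3 without NTg replicate 1, 5 without NTg replicate 3, 1 with the Hox score as a term and 0 with library totals, where the list's median was 0.14 and that of all genes -0.25.

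Among vesicular transporters of other transmitters, 5 of 6 were tested, 1 was higher and 0 lower, with a median log2 fold change of 0.50. Slc32a1 had 88.2 ± 11.9 CPM in the Q33 double knock-in and 62.5 ± 4.21 CPM in NTg (SD, n = 3; 0.50, SE 0.13, edgeR adjusted p = 0.021). No gene of this list passed without replicate 1 of the double knock-in, without NTg replicate 3 or with library totals, and the list's median was 0.21 without replicate 2 of the double knock-in. The monoamine transporter gene Slc18a1 was at 0.91 (SE 0.34, edgeR adjusted p = 0.085), and Slc30a3, which loads zinc into vesicles, at 0.31 (SE 0.18, adjusted p = 0.27). Of the 6 other SLC17 genes, Slc17a5 (sialin, a lysosomal sialic acid transporter) and Slc17a9 (the vesicular nucleotide transporter) were tested. Neither passed, at -0.15 (SE 0.15) and -0.75 (SE 0.50). Slc17a1, Slc17a2, Slc17a3 and Slc17a4 did not exceed 0.09 CPM in any library.

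Slc17a6 can be set beside the markers of the excitatory neurons that express it. Of 13 listed genes of dorsal excitatory interneurons, 12 were matched and tested, 9 were lower and 1 higher in the Q33 double knock-in against NTg, with a median log2 fold change of -1.55, while Slc17a6 was at 0.19. Lmx1b, a transcription factor of these cells, had 3.41 ± 2.32 CPM in the double knock-in and 20.1 ± 1.48 CPM in NTg (SD, n = 3; -2.57, SE 0.33, edgeR adjusted p = 0.00019). Calb2, calretinin, was the 1 that was higher (1.10, SE 0.18, edgeR adjusted p = 0.0012), and it is also the most abundant of the list, at 187 CPM in the double knock-in and 87.1 CPM in NTg. The count of lower genes was between 6 and 10 in all alternatives tried, lowest with the Hox score as a term.

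Of 9 listed genes of ventral excitatory interneurons, 7 were tested and edgeR called 0, with a median log2 fold change of 0.68. The transcription factor genes Shox2 and Evx1 were at 0.68 (SE 0.22, edgeR adjusted p = 0.053) and 1.41 (SE 0.65, adjusted p = 0.16). The count was 1 with DESeq2, with the Hox score as a term and without replicate 2 or replicate 3 of the double knock-in. Of 8 genes of inhibitory neurons, 2 were higher and 0 lower, with a median of -0.03. These were Slc6a5, the glycine transporter of inhibitory terminals (0.64, SE 0.13, edgeR adjusted p = 0.0061), and Slc32a1, while Gad1, which makes GABA, was at -0.40 (SE 0.13, adjusted p = 0.057). Of 7 motor neuron genes, 1 was higher, the receptor gene Ret (0.63, SE 0.15, edgeR adjusted p = 0.014), and 0 lower, with a median of 0.60. The median was 0.11 without replicate 2 of the double knock-in, whose summed motor neuron genes stood at 525 CPM against 287 and 294 CPM in the other animals of its genotype, and Ret passed neither without that animal nor without NTg replicate 3. Chat, which makes acetylcholine, was at 0.59 (SE 0.29, edgeR adjusted p = 0.18) and the intermediate filament gene Prph at 0.99 (SE 0.51, adjusted p = 0.21).

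**Figure D4:**
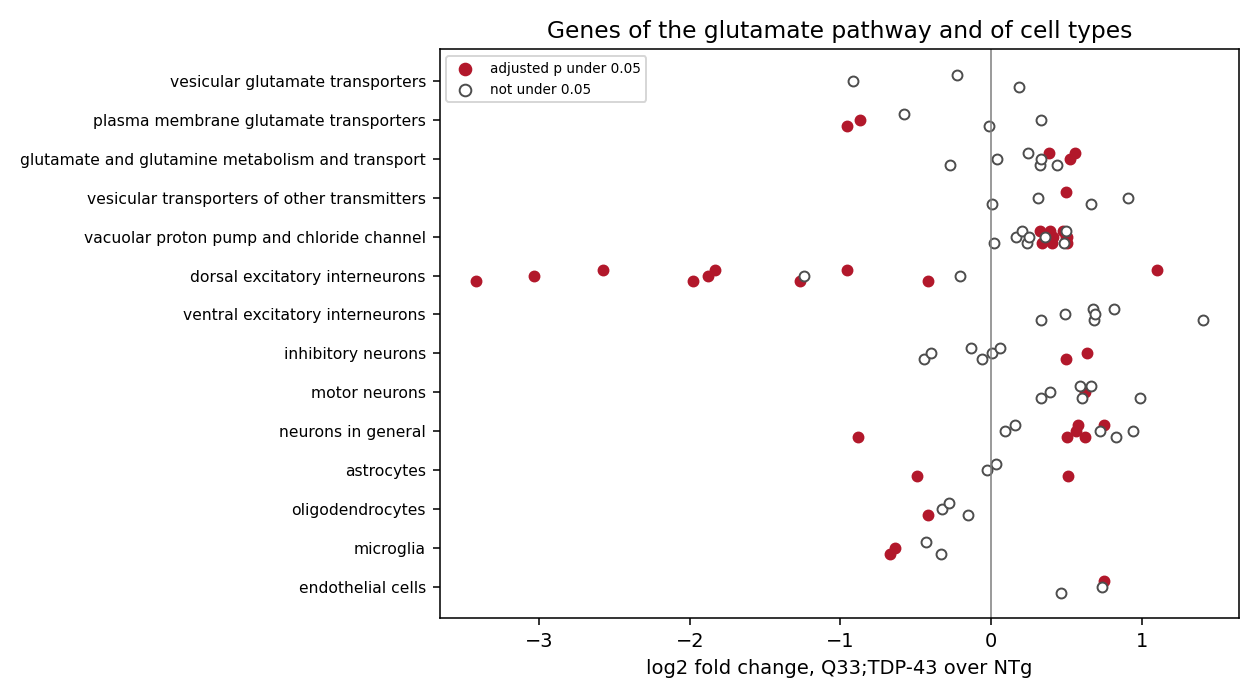
Log2 fold change in the Q33 double knock-in over NTg (x axis) of each tested gene of the pathway and cell type lists (rows), filled where the edgeR adjusted p was under 0.05; vertical scatter within a row only separates points, and 5 of the lists are not drawn. The 3 vesicular glutamate transporters in the top row are unfilled, with Slc17a6 at 0.19, while 9 dorsal excitatory genes are filled to the left of 0 and 9 proton pump genes to the right.

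General neuronal and glial genes moved as well. Of 11 genes of neurons in general, 5 were higher and 1 lower, with a median log2 fold change of 0.58. Snap25, a vesicle fusion protein, was higher (0.62, SE 0.12, edgeR adjusted p = 0.0043), as was the neuronal enolase Eno2 (0.50, SE 0.10, adjusted p = 0.0053), while the calcium sensor Syt1 was lower (-0.88, SE 0.16, adjusted p = 0.0023). Summed over the list, neuronal genes ran from 11785 to 14612 CPM in the Q33 double knock-in and from 8040 to 9315 CPM in NTg. Of 4 microglia genes 2 were lower, the receptors Csf1r (-0.63, SE 0.13, edgeR adjusted p = 0.0066) and Cx3cr1 (-0.67, SE 0.18, adjusted p = 0.020), and summed microglia genes ran from 85.0 to 105 CPM in the double knock-in and from 129 to 160 CPM in NTg. Of 4 astrocyte genes, the water channel gene Aqp4 was lower (-0.49, edgeR adjusted p = 0.015) and the connexin gene Gjb6 higher (0.51, adjusted p = 0.039). Of 4 oligodendrocyte genes 0 were higher and 1 lower, and of 3 endothelial genes the tight junction gene Cldn5 was higher (0.75, adjusted p = 0.036). The medians were 0.0041 for astrocytes, -0.30 for oligodendrocytes, -0.53 for microglia and 0.74 for endothelial cells. With replicate 1 of the double knock-in left out, 0 genes passed in the inhibitory, motor neuron, astrocyte, oligodendrocyte, microglia and endothelial lists, and 3 of the neuronal genes were higher and 1 lower. With the Hox score as a term the same lists also had 0 genes passing, and 1 neuronal gene was higher and 1 lower. The microglia count was 1 without replicate 2 of the double knock-in or NTg replicate 3, and the endothelial count 0 without any single animal of the double knock-in or without NTg replicate 2. Without NTg replicate 1 or replicate 3 the astrocyte count was 0, without any single NTg animal the oligodendrocyte count was 0, and without NTg replicate 3 the inhibitory count was 1. Astrocyte and inhibitory medians, both near 0, changed sign with the library left out. The part of a changed cell mixture in the level of Slc17a6 was not tested.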

How the data were processed

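Per the file headers, the deposited values are whole-number read counts per gene, made with featureCounts 1.6.1 in stranded paired mode on exons of GENCODE M19 from TopHat alignments. Trim Galore 0.4.1, TopHat2, featureCounts, DESeq2 and mm10 are named in the submitters' processing notes. Per the labels' protocols, RNA (integrity number above 7.5) was depleted of ribosomal RNA and sequenced as pairs of 100 bases on 3 lanes. The program line sets no option to count multi-mapped pairs, which lowers genes with near-identical copies. Column names call NTg animals WT. Gene symbols were matched for 54409 of 54446 identifiers.

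From the counts, edgeR 4.0.16 (limma 3.58.1, R 4.3.3) fitted all 18 libraries with a term for each genotype, TMM scaling and edgeR's low-count filter, two-sided, with Benjamini-Hochberg adjustment within each comparison and a threshold of 0.05. CPM uses TMM-scaled library sizes, RPKM the exon length in the count table, and log2 CPM a prior count of 2. Intervals of 95% come from the SE and the fit's degrees of freedom. DESeq2 1.42.0, other scalings, no filter, only the groups compared, sex (from Y-linked reads) or the caudal Hox score as a term, and fits without each library were alternatives. The code was tested on simulated data. Floors of 3 counts and counting error treat reads as independent molecules, which reads without molecular identifiers are not.

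The members, gene lists and tests were chosen with earlier results of these data known. Named are the members, up to 3 genes of each list with the smallest adjusted p in the Q33 double knock-in against NTg, every called gene of a list with 5 or fewer calls, and the 5 genes nearest to each member. Genes read at 0 or named as a contrast were chosen after their values were seen. Some genes that this rule names are not reported here.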

Additional observations from a re-analysis of the deposited data

How the results depend on the processing

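No paired analysis was possible because each animal has its own number in the labels and replicate numbers only name a library. Of 698 recomputed values of the member tests, 619 kept their direction and their side of the threshold, 11 newly passed and 68 changed sign, of which none had passed at first. The causes of these changes were not tested. In the main fit, Slc17a6 alone of the 3 had its intervals within 1.5-fold in all 11 comparisons of 2 genotypes. With 3 animals a genotype, its interval in the interaction of Q33 with TDP-43 went beyond 1.5-fold, and the alternatives moved its estimates. Genes called in the Q33 double knock-in against NTg were 2491, but 4146 with library totals, 531 with the Hox score as a term, 1534 with only these groups, 1378 without the libraries with Hoxd11 above 1 CPM (an alternative chosen after seeing the data) and 602 to 3048 when 1 library was left out. The same ranges were 719 to 3152 against the Q22 double knock-in (main 2650, 1672 with the Hox term, 1383 with only these groups), 552 to 3431 against TDP-43 (2610, 4084 with library totals, 320 with the Hox term, 256 with only these groups) and 7 to 395 against Q33 (184, 396 with library totals, 1147 without the filter, 120 with the Hox term, 96 with only these groups, 1038 with DESeq2, 7 without the Hoxd11 libraries). Without the filter, 39 to 533 genes were called in the other 2-genotype comparisons and the interactions, where the main result was 0 to 2, and DESeq2 called 118 in the interaction of Q33 with TDP-43. Any difference among genotypes was called for 859 genes, 65 to 1560 with 1 library left out, 1546 with library totals, 100 with the Hox term, 265 without the Hoxd11 libraries, 3012 without the filter and 2478 with DESeq2.

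Without the filter, Slc17a7 passed in Q33 against NTg (-2.59), in the Q33 double knock-in against Q33 (1.70), in the interaction of Q33 with TDP-43 (2.48) and for any difference (F = 9.68). Without the libraries with Hoxd11 above 1 CPM, Slc17a6 passed in the Q33 double knock-in against NTg (0.34), the Q22 double knock-in (0.42) and TDP-43 (0.40). Log2 fold changes whose sign turned are given next. With library totals, Slc17a6 was -0.050 in the Q33 double knock-in against NTg, -0.017 against the Q22 double knock-in, -0.054 in Q22 against NTg and 0.020 in the Q22 double knock-in against Q22, and Slc17a8 was -0.084 in Q22 against NTg and -0.21 in the Q33 double knock-in against TDP-43. With sex as a term, Slc17a6 was -0.11 in Q22 against NTg and 0.038 in the Q22 double knock-in against Q22, where Slc17a7 was 0.071. In the same fit Slc17a8 was -0.019 in the Q22 double knock-in against NTg, -0.14 in Q22 against NTg and 0.044 in the Q33 double knock-in against Q33. In that last comparison Slc17a8 was also 0.0050 with DESeq2 size factors, 0.0036 with TMM after removal of mitochondrial ribosomal RNA, 0.0070 without the filter and 0.0041 with DESeq2's Wald test. With the Hox term it was -0.024 in the Q33 double knock-in against TDP-43. Without the libraries with Hoxd11 above 1 CPM, Slc17a8 was -0.13 in the Q22 double knock-in against NTg, 0.067 in the Q33 against the Q22 double knock-in, 0.24 in the Q33 double knock-in against Q33 and -0.15 in the Q22 double knock-in against Q22. There Slc17a7 was 0.18 in the Q22 double knock-in against Q22 and 0.45 for the Q33 double knock-in against TDP-43. Slc17a6 was -0.017 for the Q22 double knock-in against TDP-43 and -0.049 in the interaction of Q22 with TDP-43.

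Leaving out 1 library at a time, Slc17a6 ranged from 0.057 to 0.34 in the Q33 double knock-in against NTg, 0.082 to 0.37 against the Q22 double knock-in, 0.12 to 0.40 against TDP-43 and 0.16 to 0.44 against Q33. It ranged from -0.076 to 0.016 in the Q22 double knock-in against NTg, -0.014 to 0.071 against TDP-43, -0.11 to 0.0026 against Q22, -0.028 to 0.072 in Q22 against NTg and -0.043 to 0.065 in the interaction of Q22 with TDP-43. Slc17a7 ranged from -0.0029 to 1.15 in the Q33 against the Q22 double knock-in, -2.64 to 0.81 in Q33 against Q22, -0.74 to 0.55 in the Q33 double knock-in against TDP-43, -0.90 to 1.94 in the Q22 double knock-in against Q22 and -0.14 to 2.71 in the interaction of Q22 with TDP-43. Slc17a8 against NTg ranged from -0.45 to 0.37 in the Q33 double knock-in, -0.19 to 0.63 in the Q22 double knock-in, -0.46 to 0.36 in Q33, -0.24 to 0.60 in Q22 and -0.48 to 0.34 in TDP-43. It ranged from -0.44 to 0.020 in Q33 against Q22, -0.24 to 0.23 in the Q33 double knock-in against TDP-43, -0.19 to 0.17 against Q33, -0.18 to 0.28 in the Q22 double knock-in against Q22, -0.34 to 0.49 in the interaction of Q33 with TDP-43 and -0.31 to 0.52 in that of Q22. Each of these fits left a genotype with 2 animals, and the spread was estimated over all genotypes.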
